A study of Mus musculus with 4 samples.

Results

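Small nucleolar RNAs (snoRNAs) and the non-coding genes that host them were followed in mouse embryonic stem cells after a short exposure to valproic acid (VPA), a branched fatty acid that inhibits histone deacetylases. The members were taken by name: every gene whose symbol starts with Snord or Snora followed by a digit, or with Snhg followed by a digit, and Gas5. A gene counted where at least 1 probe set of the array carried its symbol and no other. This gave 57 of the 19938 genes measured, namely 31 box C/D snoRNAs (Snord), 20 box H/ACA snoRNAs (Snora) and 6 host genes (Gas5, Snhg5, Snhg11, Snhg15, Snhg16 and Snhg17). The untreated group was 2 arrays of the E14 line and the VPA group was 2 arrays of the same line given 0.5 mM VPA for 4 h. All cells grew with leukemia inhibitory factor and serum on feeders, primary embryonic fibroblasts stopped from dividing with mitomycin C, and the labels describe no step that removes the feeders before total RNA was extracted. The labels number the arrays of a group as replicates without naming separate cultures, so each p-value reflects array-to-array variation that could be technical.

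Box C/D snoRNAs guide the methylation of ribose in ribosomal RNA and box H/ACA snoRNAs guide the conversion of uridine to pseudouridine, each by pairing with its target inside a protein particle. A few of them are needed for cutting the ribosomal RNA precursor instead. In mammals most lie in introns of longer genes and are freed when the spliced intron is opened and trimmed. The Snhg genes and Gas5 are such hosts whose spliced RNA is not known to code for a conserved protein and is often removed by nonsense-mediated decay, so the product of the locus is mainly the snoRNA in its introns. Many hosts start their RNA with a run of pyrimidines, the 5′ terminal oligopyrimidine tract, which they share with ribosomal protein genes.

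The RNA was purified on RNeasy columns, per the labels' protocols, and standard columns of this kind recover very short RNA poorly. The snoRNA genes named here are short, from 45 bases for Snord42a to 205 bases for Snora73a and Snora73b. Whether a probe set read the mature snoRNA, the intron that held it or unspliced host RNA was not tested. The signal of a probe set also depends on its probes, so levels are compared between arrays and not between genes.

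The starts of the 6 host genes are printed because a pyrimidine tract at the start marks this class of host. Each line gives the 20 bases before and the 20 bases from an annotated start, 5′ to 3′ on the gene's strand, from RefSeq with the coordinates of GRCm38.p6. Capitals mark the longest run of 6 or more bases that are all C or T.
Gas5, first start, chr1:161034581-161034620, plus strand: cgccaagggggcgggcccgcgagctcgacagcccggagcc
Gas5, second start, chr1:161035146-161035185, plus strand: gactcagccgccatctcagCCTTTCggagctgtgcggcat
Snhg5, chr9:88522878-88522917, minus strand: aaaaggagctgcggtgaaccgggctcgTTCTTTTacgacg
Snhg11, chr2:158375693-158375732, plus strand: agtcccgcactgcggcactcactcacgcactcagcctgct
Snhg15, chr11:6528741-6528780, minus strand: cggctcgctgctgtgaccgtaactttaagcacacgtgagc
Snhg16, chr11:116671640-116671679, plus strand: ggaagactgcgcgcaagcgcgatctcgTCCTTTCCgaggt
Snhg17, outer start, chr2:158361503-158361542, minus strand: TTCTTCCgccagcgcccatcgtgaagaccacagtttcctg
Snhg17, inner start, chr2:158361490-158361529, minus strand: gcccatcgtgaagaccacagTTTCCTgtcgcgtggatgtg

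A run was present in these 40 bases for Gas5 (at the second start), Snhg5, Snhg16 and Snhg17, and absent for Snhg11 and Snhg15. The same search found a run at 37.5% of 32851 annotated starts of all genes, so it is common. It was made on the gene's strand only, and a run away from the exact start is not a tract at the cap. With the start as base 1, the run began at base −1 for the second Gas5 start and at base 1 for the inner Snhg17 start. The runs of Snhg5 and Snhg16 began at base 8, past the start. That of the outer Snhg17 start began at base −20 and ended before it. The sequence CACGTG, the E-box letters bound by MYC and related factors and the same on both strands, occurred among the hosts only in the 300 bases around the start of Snhg15, and in 7.15% of all such windows. A match describes letters and shows no binding.

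After 4 h with VPA none of the 57 genes differed between the groups in the test over the whole array. Most differences were small and 39 of the 57 leaned downward. The median difference was −0.058 on the log2 scale, against a median of 0.015 over all genes. The box C/D snoRNAs had a median of −0.081, the box H/ACA snoRNAs of −0.060 and the host genes of −0.051, so the classes sat close together. With limma and Benjamini-Hochberg adjustment over 35556 probe sets, 0 members were called, where the share called over all probe sets was 0.0%. The smallest adjusted p among the members was 0.527, for Snora23.

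The counts at an unadjusted p under 0.05 were 1 member with a higher mean and 0 with a lower one, where 5.9% of all genes were higher and 2.71% lower. The members' share lay below that of all genes in both directions, but the downward order turned in 5 of 10 alternative settings. A second quantile normalization gave 5 lower members, or 8.77%, against 3.74% of all genes, and without untreated replicate 1 there were 4, or 7.02%, against 3.21%. In 19 members, or 33.3%, both VPA arrays lay below both untreated arrays, which was so for 18.1% of all genes. The opposite order, both VPA arrays on top, was found in 8 members against 24.1% of all genes. Only Snord37 also had group means at least 1.5-fold apart, being lower. That was so for 0.266% of all genes in the downward and 0.973% in the upward direction, and for 0 members in the upward direction. With 2 arrays a group the smallest p of an exact permutation test is 0.33, so these counts are a description.

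The intervals show which differences the arrays leave possible. For 40 of the 57 members, or 70.2%, the 95% interval of the difference lay wholly within 1.5-fold in either direction, and for 74.5% of all genes it did. All 6 host genes, 20 of the 31 box C/D snoRNAs and 14 of the 20 box H/ACA snoRNAs were among them. For the other 17 members the interval reached past 1.5-fold in at least one direction. These counts rest on the brightest probe set of each gene. Gas5 probe sets 10351035 and 10351039 had intervals down to −0.64 and −0.95, past 1.5-fold, so a fall of that size in Gas5 is left possible. The spread between replicates was of the same size as the differences. The median absolute difference over members was 0.13 between the groups. It was 0.19 from one untreated array to the other and 0.11 for the VPA pair.

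**Figure D1:**
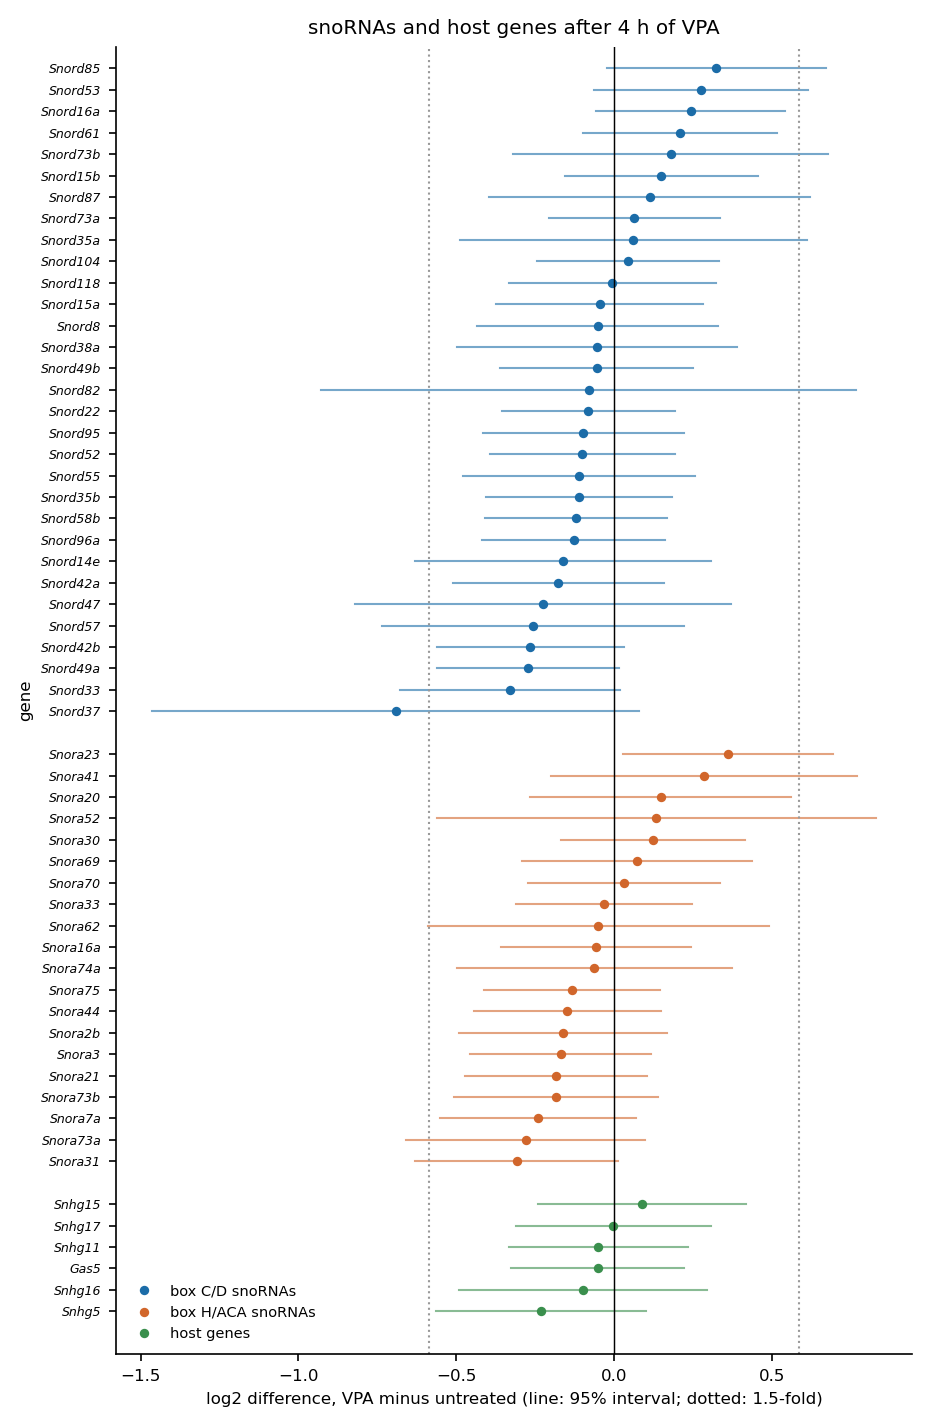
Each point is the log2 difference of 1 gene, VPA minus untreated, with its 95% interval from limma (2 arrays in each group), by class. Only the interval of Snora23 lies clear of 0, Snord37 has the widest downward reach, and the dotted lines mark 1.5-fold.

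The downward lean was seen in the deviations from each gene's own mean over the 4 arrays. The median deviation over the 57 members was 0.020 and 0.059 on the untreated arrays 1 and 2, and −0.034 and −0.039 on the VPA arrays 1 and 2. Over all genes it lay between −0.012 and 0.016 on these arrays. Both untreated medians were thus above both VPA medians, and no test was made of this order. Within classes the untreated values were −0.0042 and 0.060 for box C/D snoRNAs, 0.029 and 0.058 for box H/ACA snoRNAs and 0.054 and −0.00073 for host genes. The VPA values of these classes lay between −0.055 and −0.012.

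**Figure D2:**
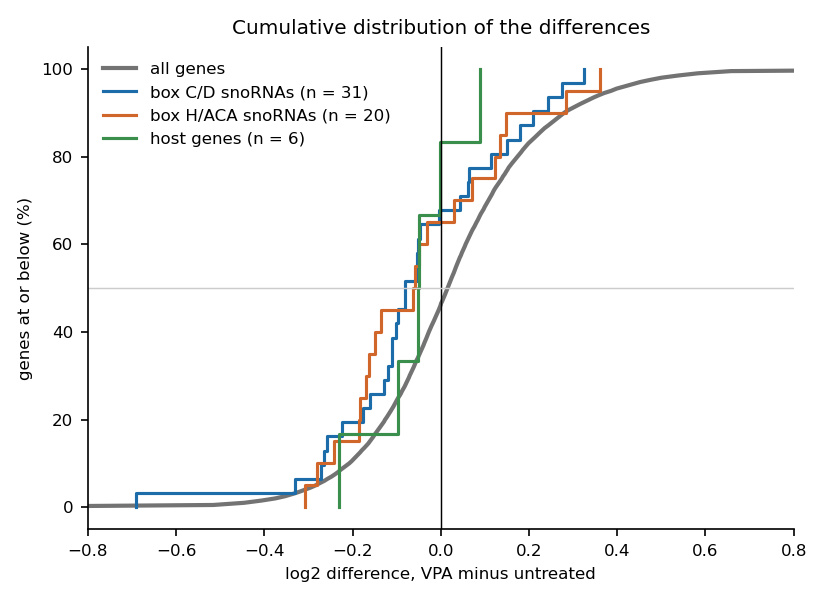
The lines give the share of genes (vertical axis, %) whose log2 difference, VPA minus untreated, lies at or below the value on the horizontal axis, for all 19938 genes and for each class. The 3 classes run above the line of all genes around 0, with 67.7% of box C/D, 65.0% of box H/ACA and 83.3% of host genes below 0 against 46.3% of all genes.

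Feeder RNA and stem cell state were read from marker genes. All 10 stem cell markers were above the array's median signal. With VPA 7 had a lower mean, 3 at an unadjusted p under 0.05, where 2.71% of all genes were lower at that p. The median difference of the stem cell markers was −0.16. Those of smallest p were the pluripotency factors Sall4 at −0.43 ± 0.11 (SE) and Nanog at −0.48 ± 0.14. The 3 stem cell markers with a higher mean were Sox2 at 0.20 ± 0.19, Tdgf1 at 0.12 ± 0.11 and Dppa5a at 0.11 ± 0.13. Of 16 fibroblast markers 15 were measured, 11 had a lower mean and their median difference was −0.072. The one at an unadjusted p under 0.05, Thy1, had a higher mean, at 0.31 ± 0.12 (SE) without overlap, and the next, Sparc, differed by −0.26 ± 0.11. The summed signal of the fibroblast markers, on the linear scale, was 3182 and 3300.5 on the untreated arrays and 3092 and 3106 on the VPA arrays. The sum rests mostly on its brightest markers, Vim, Fn1 and Sparc, and says little of the dim ones. Whether the signal of these bright markers came from the feeders or from the stem cells was not tested. Vim differed by −0.018 and Fn1 by −0.0098. The dimmest marker of this list, Lum, lay at 2.18 and 2.19 in untreated and at 2.36 and 2.37 in VPA cells. The lowest value of any probe set was 1.41, so a value here does not show that a marker was expressed. The part of these shifts in the lean of the snoRNAs was not tested. In total RNA, fewer cells of a type and less RNA per cell cannot be told apart.

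Among box C/D snoRNAs, 21 had a lower and 10 a higher mean with VPA, and 0 reached an unadjusted p under 0.05. Snord49a, a methylation guide, read 7.53 and 7.40 on the untreated arrays and 7.18 and 7.20 on the VPA arrays. Both VPA values lay below both untreated ones. The difference was −0.27 ± 0.11 (SE, n = 2 per group), with a 95% interval from −0.56 to 0.015 and an unadjusted limma p of 0.059.

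Snord33, one of several guides held by the ribosomal protein gene Rpl13a, read 6.96 and 7.22 in untreated and 6.72 and 6.79 in VPA cells. The groups did not overlap, and the difference was −0.33 ± 0.14 (SE). Snord42b, held by Rpl23a, read 7.16 and 7.31 in untreated and 6.99 and 6.95 in VPA cells, which differ by −0.27 ± 0.11. The means of these 3 guides were 1.20-fold to 1.26-fold lower with VPA, and their adjusted p lay between 0.551 and 0.560.

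Snord37, which lies in the translation elongation factor gene Eef2, had the largest difference of all members. It read 4.48 and 5.12 in untreated and 3.80 and 4.41 in VPA cells, a difference of −0.69 ± 0.30 (SE). The higher VPA value lay just under the lower untreated value, and the replicates within either group were nearly as far apart as the group means. Its 95% interval ran from −1.46 to 0.080.

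The box C/D snoRNAs of smallest p with a higher mean were Snord85, Snord16a, Snord53 and Snord61. Snord16a, held by Rpl4, read 7.76 and 7.61 in untreated and 7.90 and 7.96 in VPA cells, a difference of 0.24 ± 0.12 (SE). Snord53, held by the processome gene Wdr43, read 6.73 and 6.51 in untreated and 6.82 and 6.97 in VPA cells, a difference of 0.28 ± 0.13. In both the VPA arrays lay above the untreated ones. Snord85 went from 2.98 and 3.24 to 3.41 and 3.47, and Snord61 from 2.62 on each untreated array to 2.93 and 2.74. Both were dim, with a mean signal at percentile 39.4 for Snord85 and 20.9 for Snord61 among all probe sets.

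Among the box C/D snoRNAs known for precursor processing, none had group means far apart. Snord22 (U22), needed for the RNA of the small ribosomal subunit and held by Snhg1, read 7.09 and 7.12 in untreated and 7.06 and 6.99 in VPA cells. The groups did not overlap, yet the difference of −0.082 ± 0.11 (SE) was below its error, with an interval from −0.36 to 0.19. Snord14e, of the U14 family, read 8.08 and 7.65 in untreated and 7.61 and 7.80 in VPA cells, so the groups overlapped, with a difference of −0.16 ± 0.18. Snord118 (U8), needed for the RNA of the large subunit, read 2.59 and 2.74 in untreated and 2.74 and 2.57 in VPA cells, a difference of −0.0053 ± 0.13. Its signal was at percentile 18.2, and its 2 probe sets gave the same values to the last digit deposited.

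The remaining box C/D snoRNAs named by signal were Snord49b and, beside Gas5, Snord47. Snord49b lies in the same host as Snord49a and read 8.60 and 8.66 in untreated and 8.66 and 8.49 in VPA cells, an overlap, with a difference of −0.055 ± 0.12 (SE). Snord82, singled out after its values were seen, had the widest interval of all members, from −0.93 to 0.77. Its untreated arrays alone, at 6.18 and 7.14, lay almost a log2 unit apart. The 18 box C/D snoRNAs that the naming rule left out, this one among them, ran from −0.26 for Snord57 to 0.18 for Snord73b. Of these, 5 were lower and 2 higher without overlap, where 18.1% of all genes were lower and 24.1% higher in this way.

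**Figure D3:**
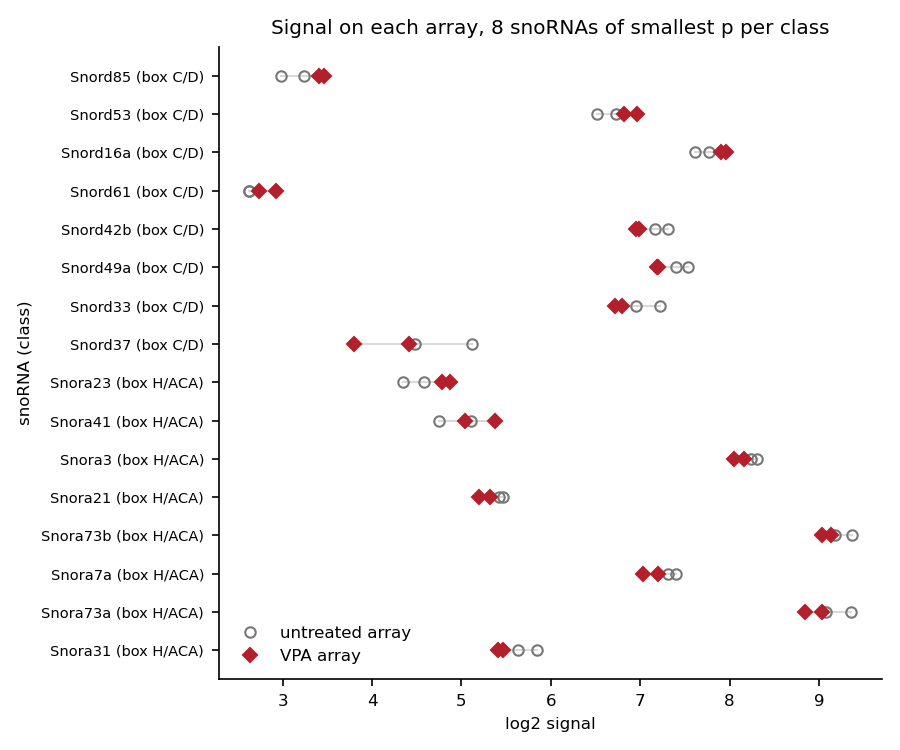
Points are log2 signals of single arrays, open circles untreated and diamonds VPA, for the 8 snoRNAs of smallest p in each class. The groups lie apart for all shown except Snora41, and Snord37 has the widest spread within each group.

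Among box H/ACA snoRNAs, 13 had a lower and 7 a higher mean, and 1 reached an unadjusted p under 0.05. This was Snora23, a guide in an intron of the importin gene Ipo7. It read 4.58 and 4.35 in untreated and 4.87 and 4.78 in VPA cells. Both VPA arrays lay above both untreated ones. The difference was 0.36 ± 0.13 (SE), about 1.28-fold, with an interval from 0.028 to 0.69, a limma p of 0.039 and an adjusted p of 0.527.

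Snora31, held by Tpt1, had the lowest difference of this class. It read 5.85 and 5.64 in untreated and 5.41 and 5.46 in VPA cells, a difference of −0.31 ± 0.12 (SE) with an adjusted p of 0.545 in limma. The groups did not overlap. Snora7a, held by Rpl32, read 7.40 and 7.31 in untreated and 7.20 and 7.03 in VPA cells, a difference of −0.24 ± 0.12. Snora3, held by Rpl27a, and Snora21, held by Rpl23, were lower by smaller amounts, −0.17 ± 0.11 and −0.18 ± 0.11, also without overlap.

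Snora73a and Snora73b are copies of U17, an H/ACA RNA that serves in cutting the small-subunit precursor instead of modifying it. Snora73a read 9.35 and 9.08 in untreated and 9.03 and 8.85 in VPA cells, a difference of −0.28 ± 0.15 (SE). Snora73b read 9.37 and 9.17 in untreated and 9.14 and 9.03 in VPA cells, a difference of −0.18 ± 0.12. In both the VPA arrays lay below the untreated ones, though the nearest pair was closer than the replicates. The copies are similar in sequence and share their host Snhg3, so they are no independent readings.

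Snora41, Snora52, Snora20 and Snora2b overlapped between groups. Snora41, held by Eef1b2, read 5.11 and 4.75 in untreated and 5.04 and 5.38 in VPA cells. Snora52, held by Rplp2, read 8.04 and 8.62 in untreated and 8.73 and 8.20 in VPA cells. In Snora52 the replicates of each group lay over 0.5 apart, and the difference of 0.13 ± 0.27 (SE) was small against that. The dimmest of the class, Snora20 and Snora2b, differed by 0.15 ± 0.16 and −0.16 ± 0.13. The 7 box H/ACA snoRNAs left out by the naming rule ran from −0.13 for Snora75 to 0.12 for Snora30.

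Of the 6 host genes, each read at its probe set of highest mean, 5 had a lower mean. The smallest adjusted p among these readings was 0.639 in limma (Snhg5). Snhg5 read 9.31 and 9.06 in untreated and 8.96 and 8.95 in VPA cells, a difference of −0.23 ± 0.13 (SE) with an interval from −0.56 to 0.10. At the probe set used for each host, Snhg5 was the only one whose groups did not overlap. Another probe set separated downward in Gas5 and upward in Snhg11 and in Snhg17. Snhg16 read 7.51 and 7.70 in untreated and 7.36 and 7.66 in VPA cells, a difference of −0.097 ± 0.15. Snhg15, the host with a higher mean, read 6.02 and 6.25 in untreated and 6.19 and 6.26 in VPA cells, a difference of 0.090 ± 0.13.

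Snhg17 read 8.30 and 8.11 in untreated and 8.17 and 8.24 in VPA cells, a difference of −0.0025 ± 0.12 (SE), and its sign is not settled since the mean of its 3 probe sets gave 0.036. Snhg11, known mainly from brain, read 4.06 and 3.99 in untreated and 4.02 and 3.93 in VPA cells. Its difference was −0.050 ± 0.11 at the brighter probe set and 0.26 at the other, so the mean of both, 0.10, has the opposite sign. Both hosts thus depend on the probe set for direction.

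Gas5, first isolated as an RNA abundant in growth-arrested cells and the host of Snord47, had 4 probe sets that did not move alike. The brightest, used here, read 9.75 and 9.71 in untreated and 9.71 and 9.64 in VPA cells, a difference of −0.052 ± 0.11 (SE). The next gave −0.0028 ± 0.13. Probe set 10351035 read 8.74 and 8.64 in untreated and 8.33 and 8.32 in VPA cells, a difference of −0.36 ± 0.11 with an interval from −0.64 to −0.083 and a limma p of 0.021 (adjusted p = 0.503). It was the only Gas5 probe set whose groups did not overlap. The dimmest gave −0.36 ± 0.23, and the mean of all 4 gave −0.20 for Gas5. Snord47 read 6.13 and 5.68 in untreated and 5.44 and 5.92 in VPA cells, a difference of −0.22 ± 0.23. Which exons or introns these probe sets cover was not analysed here.

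**Figure D4:**
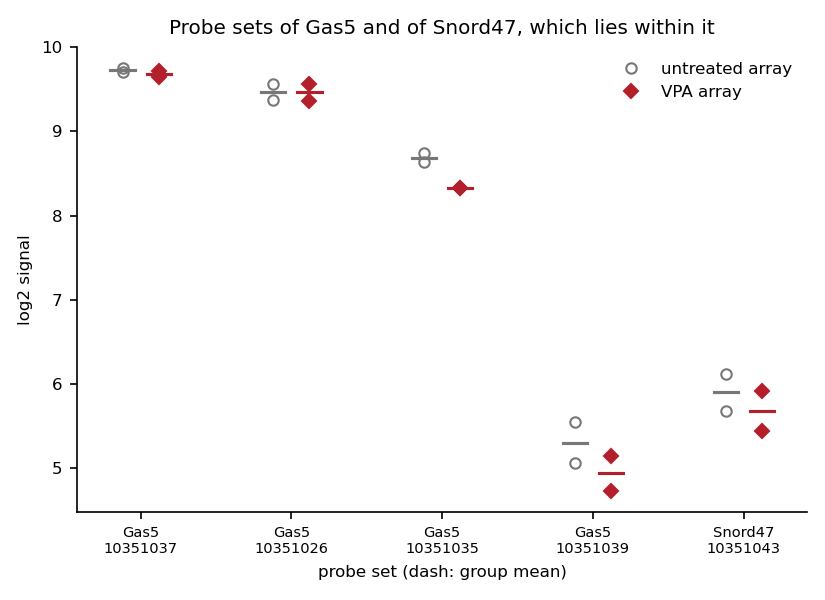
Log2 signals of single arrays (circles untreated, diamonds VPA, dashes group means, n = 2 each) for the 4 probe sets of Gas5 and for Snord47, which lies within Gas5. The groups overlap in all but probe set 10351035.

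Since most snoRNAs are cut from introns, each was set beside the gene around it. In the RefSeq table of GRCm38.p6, 50 of the 51 snoRNAs lay inside a longer gene and Snord118, known to have its own promoter, did not. The 40 hosts included 16 ribosomal protein genes, which held 21 of the snoRNAs, and 6 Snhg genes or Gas5, which held 8. The table gives no strand, so a host is a gene whose span holds the snoRNA. For 27 snoRNAs the host also had a probe set of its own, from 23 hosts, of which 17 had a lower mean with VPA and the median difference was −0.053. The snoRNA and its host were both lower in 13 of these pairs, both higher in 5 and opposite in the others, a description because the pairs share arrays and some share a host. Many ribosomal protein genes have processed copies elsewhere, and the probe set of a host may read those too. Each host was read by its symbol, and whether its probe set lies at the locus around the snoRNA was not checked.

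Several pairs parted. Eef2 read 11.99 and 12.01 in untreated and 11.91 and 11.89 in VPA cells, a difference of −0.10 ± 0.10 (SE), beside −0.69 ± 0.30 for its Snord37. Tpt1 differed by 0.045 ± 0.11 beside −0.31 ± 0.12 for Snora31, and Wdr43 by −0.25 ± 0.12 beside 0.28 ± 0.13 for Snord53. The Tpt1 probe set, 10601264, is numbered between those of Snora70 and Snora69, both on chromosome X, while Snora31 is on chromosome 14. Whether it reads a copy of Tpt1 elsewhere was not tested, so this pair may not share a locus. The same holds for pairs of one sign. The Rpl27a probe set, 10547151, is numbered close to that of Snora7a on chromosome 6, while Snora3 is on chromosome 7. That of Rpl23a, 10346105, is numbered close to that of Snora41 on chromosome 1, while Snord42a and Snord42b are on chromosome 11. The counts of pairs given above may thus include several that do not share a locus. The widest gap in the upward direction was Snora30 beside the chromatin remodelling gene Srcap, a pair singled out after its values were seen. Srcap read 8.61 and 8.78 in untreated and 8.11 and 8.17 in VPA cells, a difference of −0.55 ± 0.12 with an adjusted p of 0.472 in limma, while Snora30 differed by 0.12 ± 0.11. The 2 probe sets of Snora30 held identical values and count once. No difference between a snoRNA and its host was tested.

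**Figure D5:**
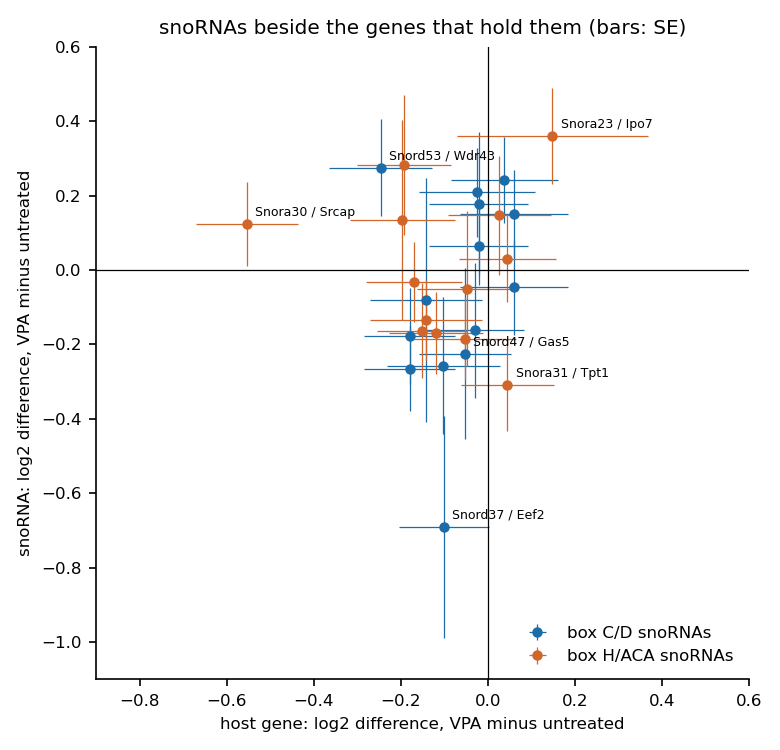
Each point is 1 of 27 snoRNAs, with its own log2 difference (VPA minus untreated) on the vertical axis and that of its host gene on the horizontal axis, and bars of 1 SE from limma. Of the points, 13 lie in the lower left and 5 in the upper right, and Srcap with Snora30 lies farthest left.

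Where a host held 2 members, both mostly had the same sign. Of 10 such hosts, both snoRNAs were lower in 7, both higher in 1 and opposite in Rpl13a and Rps3. Since 66.7% of all snoRNAs had a lower mean, a shared sign is common without a shared host, and no test was made. In Rpl13a, Snord33 differed by −0.33 and Snord35a by 0.061, a gap of 0.39 that was the widest among these hosts. In Snhg12, the host of Snora16a and Snora44, the differences were −0.058 ± 0.12 and −0.15 ± 0.11 (SE). Snora44 read 6.46 and 6.61 in untreated and 6.42 and 6.36 in VPA cells, without overlap, and Snora16a overlapped.

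The proteins that bind and make snoRNAs showed no called gene either. The box C/D core is made of the methyltransferase fibrillarin (Fbl) with Nop56, Nop58 and Snu13, and their differences were 0.14 ± 0.12, −0.10 ± 0.13, −0.11 ± 0.16 and 0.0093 ± 0.11 (SE). All 4 overlapped between groups. The box H/ACA core is made of the pseudouridine synthase dyskerin (Dkc1) with Gar1, Nhp2 and Nop10, which differed by −0.16 ± 0.19, −0.10 ± 0.11, −0.21 ± 0.11 and 0.15 ± 0.17. Nhp2 read 10.16 and 10.17 in untreated and 9.89 and 10.02 in VPA cells, without overlap, as did Gar1 at a smaller distance.

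Of 14 assembly factors, 1 had an unadjusted p under 0.05, with a lower mean, where 2.71% of all genes were lower at that p. It was Coil, the coilin of Cajal bodies, at −0.41 ± 0.15 (SE, adjusted p = 0.529 in limma), and Rpap3, a chaperone partner, differed by 0.30 ± 0.14. Of 16 genes that open, trim or degrade RNA, 1 reached that p with a higher mean, where 5.9% of all genes did. This was the exonuclease gene Xrn1, which read 6.69 and 6.65 in untreated and 7.09 and 7.03 in VPA cells. Dbr1, which opens the intron lariat, read 7.38 and 7.35 in untreated and 7.55 and 7.61 in VPA cells, a difference of 0.21 ± 0.11.

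Nonsense-mediated decay acts on the spliced RNA of many snoRNA hosts. Of 14 factors listed, 10 were measured, of which 6 had a lower mean, and the median difference was −0.031. An unadjusted p under 0.05 was reached by 2, both with a higher mean, where 5.9% of all genes were higher at that p. Upf2 read 7.78 and 7.55 in untreated and 8.12 and 8.05 in VPA cells, a difference of 0.42 ± 0.13 (SE), and the kinase Smg1 read 7.83 and 7.62 against 8.12 and 8.10, a difference of 0.39 ± 0.12. Both had an adjusted p of 0.504 in limma.

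In the processome that carries U3, 12 of 21 genes had a higher and 9 a lower mean, with 0 at an unadjusted p under 0.05 and a median of 0.033. Those of smallest p were Wdr43, given above, and Nol6 at −0.19 ± 0.13 (SE). Of 16 RNA polymerase I and nucleolar genes, 11 had a lower mean, among them 1 at that p (Ubtf), where 2.71% of all genes were lower. No gene of this list was higher at that p. Ubtf, a factor that opens ribosomal DNA for transcription, read 9.03 and 8.98 in untreated and 8.71 and 8.73 in VPA cells, a difference of −0.29 ± 0.10. Npm1, a nucleolar chaperone, differed by −0.33 ± 0.14.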

How the data were processed

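The table the authors deposited holds a log2 signal for every probe set on each array. The submitters' processing notes name RMA, which corrects background, equalises the arrays' distributions and summarises probes, and version 1.1 of Affymetrix Expression Console. Which arrays were normalized together, and the array's genome build, are not given in the sources used here. Each array was grouped by the treatment in its title. The values of the 4 arrays were used as deposited. Symbols came from the platform annotation: 21789 of 35556 probe sets had 1 symbol, 1621 several and 12146 none here. A gene was read from its probe set of highest mean. The members had 68 single-symbol probe sets, and 8 members had more than 1. A further 41 probe sets named a snoRNA or host beside another gene and were not used.

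A linear model with treatment as its only term was fitted to all probe sets in R 4.3.3 with limma 3.58.1 (lmFit, then eBayes), two-sided, with Benjamini-Hochberg adjustment over all probe sets and a threshold of 0.05. The moderation added 2.93 to 2 residual degrees of freedom. SE and 95% intervals come from this fit, which was tested on simulated data. No filter on low signal was applied; 52 of 57 members lay above the median of all probe sets. The precision is limited by the number of arrays.

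Members and lists were chosen with earlier results of these data known. Text names every host, the 8 snoRNAs of smallest p, the 3 of highest and 2 of lowest signal per class, those nested in Gas5, Snhg1 and Snhg12, every core protein and the 2 genes of smallest p per other list. The brightest and dimmest fibroblast markers were named as well, and so were the stem cell markers with a higher mean. Hosts of snoRNAs were planned by span and strand, and strand was dropped because the table lacks it. Alternatives were a second quantile normalization, trend and robust moderation, dim probe sets left out, the mean of a gene's probe sets, centring on named probe sets, the replicate block and each array left out.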

Additional observations from a re-analysis of the deposited data

How the results depend on the processing

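No probe set was called under any of the 10 alternatives, where the smallest adjusted p in limma ran from 0.321 to 0.930. Members with a lower mean numbered between 35 and 42. In the alternatives on 4 arrays other than the block, 18 to 22 members were lower without overlap and 5 to 9 were higher. In these settings 42.1% to 48.6% of all genes had groups without overlap, with both directions counted. That share was not split by direction. At an unadjusted p under 0.05, a second quantile normalization gave 5 lower (8.77% of members against 3.74% of genes) and 1 higher (Snora31, Snora7a, Snord33, Snord42b, Snord49a; Snord85), trend and robust moderation 0 higher, and the median of box H/ACA snoRNAs became −0.12 with the second normalization. With the replicate block 1 was lower (Snord37) and 1 higher (Snora23), each 1.75% of members. Of all genes 1.57% were lower and 3.95% higher at that p with the block, and no probe set was called. Same-numbered arrays correlated at −0.097 in their deviations. That shows no shared effect of the number but cannot tell whether the arrays were paired. With 1 array left out, an arm holds a single array that is assumed to vary like the other group. The p-values of these fits thus rest on that group's spread. The class medians in these fits ran from −0.087 to −0.025 (box C/D), −0.14 to −0.077 (box H/ACA) and −0.080 to −0.026 (hosts). Members without overlap then numbered 37 to 46, when 67.8% to 74.8% of all genes did not overlap. Snora23 kept its direction in all alternatives but missed that p without VPA replicate 1, without VPA replicate 2, without untreated replicate 2, with the second normalization and with trend and robust moderation.

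Of 32 named members, 22 kept their sign throughout. With a gene's probe sets averaged, Snhg11 became 0.10, Snhg17 0.036 and Gas5 −0.20. With 1 array left out, Snhg15 ran from −0.023 to 0.20, Snhg16 from −0.25 to 0.052, Snhg17 from −0.093 to 0.088, Snora52 from −0.15 to 0.42, Snora16a from −0.14 to 0.022, Snord14e from −0.38 to 0.054, Snord47 from −0.46 to 0.013, Snord49b from −0.14 to 0.031 and Snord118 from −0.090 to 0.080. Snord37 ran from −1.01 to −0.37. Causes were not tested.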
